A study of Mus musculus with 96 samples.

Results

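The night-fed wild type livers at the start of the meal were compared with the same groups at the end of the daytime fast: 4 mRNA libraries at zeitgeber time (ZT, conventionally hours after lights on) 16 against 4 at ZT12, which is 8 of the 96 libraries of the study. The members were chosen by their labels and not by any measured value, though with earlier results of these data known. They are every wild type library under night-restricted feeding (RF) at these 2 times. All 8 came from livers of mice aged 12-16 weeks, in 4 numbered replicate series that each held both times: replicates 2 and 4 of Bmal1 WT, the wild types of the Bmal1 knockout line, and replicates 6 and 9 of Cry WT, the wild types of the Cry1/2 double knockout line. Values by library are given below in that order. Beside them stand the 8 wild type libraries at the same times fed ad libitum (AL; Bmal1 WT replicates 1 and 8, Cry WT replicates 2 and 4) and the 8 night-fed knockouts (Bmal1 KO replicates 2 and 4, and Cry1/2_dKO, called Cry KO here, replicates 3 and 5). The labels give no strain, sex or tissue range of the deletions, and do not say whether the 2 times of a series share more than a number, so every p here reflects only how far these libraries spread, which may be technical. Dusk, the active phase and the night meal fall close together, and within the night-fed mice they cannot be told apart. How much the mice had eaten by ZT16 is not analysed here.

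The liver switches at a meal from releasing glucose to storing it. In the fast, glucagon and FOXO1 keep the genes of gluconeogenesis, fatty acid oxidation and autophagy on; after feeding, insulin silences them and turns on SREBP-1c and the enzymes of fat synthesis. The circadian clock runs beside this: CLOCK and BMAL1 activate the Per, Cry, Rev-erb (Nr1d1, Nr1d2) and PAR bZIP genes, and REV-ERBs in turn repress Arntl, the gene of BMAL1. Body temperature of mice rises at night and can act on heat shock factor 1, which drives the cytosolic chaperones, and protein secretion after a meal loads the endoplasmic reticulum (ER), where XBP1 and ATF6 drive the genes of folding.

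Total counts of the 8 libraries ran from 7455460 (Bmal1 WT replicate 4 at ZT16) to 28656176. Summed hepatocyte markers were at 47630 to 90090 CPM (normalised read counts scaled to a common library total) and Alb, the gene of albumin, at 25200 to 69530 CPM. At ZT12, 2 libraries stood apart: Bmal1 WT replicate 2 held 2040 CPM and Cry WT replicate 6 held 21050 CPM of Saa1, an acute phase gene, against 24.8 to 78.2 CPM in the other 6. The same 2 libraries had the lowest Alb (29630 and 25200 CPM against at least 60910), the highest summed Kupffer cell markers (806 and 887 against 165 to 396 CPM) and the highest summed neutrophil markers (5.49 and 124 against 0.136 to 0.774 CPM). Several results that rest on them are given with and without them.

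Of 15604 genes tested, 1188 (7.61%) passed an adjusted p of 0.05 in edgeR's quasi-likelihood test with the 4 series as blocks; 605 (3.88%) were higher and 583 (3.74%) lower at ZT16. By at least 2-fold, 236 were higher and 199 lower. The median log2 fold change over all genes tested was -0.01. The 4 libraries of ZT12 and the 4 of ZT16 did not overlap in 2630 genes (16.9%). Without the 2 libraries rich in Saa1, 123 genes passed with the series as blocks, where 2 pairs remain; 1353 passed with line means in place of the series, and 840 of those were among the 1188 with the same direction. The count also fell to 147 without Bmal1 WT replicate 2 and to 137 without Bmal1 WT replicate 4. With all 8 libraries kept and line means in place of the series (no replicate block), 1365 passed.

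Among the 6 steps of 4 h around the day, this one held the most calls. In 1 fit of all 24 night-fed wild type libraries, 2614 of 16012 genes (16.3%) passed between ZT12 and ZT16, with 1317 higher (8.23%) and 1297 lower (8.1%). The step before it, ZT8 to ZT12, held 1115 (6.96%), and the step after it, ZT16 to ZT20, held 553 (3.45%). Between ZT4 and ZT8 559 genes passed (3.49%), between ZT0 and ZT4 169 (1.06%), and between ZT20 and ZT0 85 (0.531%). With the 2 libraries rich in Saa1 left out, the step from ZT12 to ZT16 held 1316 and still the most, beside 598 from ZT8 to ZT12 and 710 from ZT16 to ZT20.

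**Figure D1:**
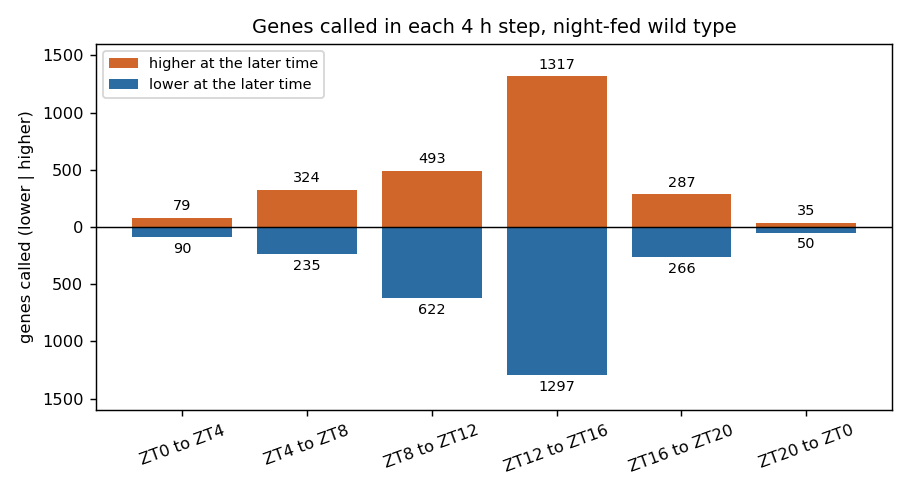
Genes called at an adjusted p under 0.05 (y axis, number of genes; higher above and lower below the line) in each 4 h step (x axis) in 1 fit of the 24 night-fed wild type libraries. The bars of ZT12 to ZT16, with 1317 higher and 1297 lower, are the tallest of the 6 steps.

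Heat shock chaperones, which keep cytosolic proteins folded, held the most calls of the 24 pathway lists: 16 of 21 measured rose, where 3.88% of all genes did, none fell, and the median log2 fold change was 1.23, against -0.01 over all genes. The libraries of the 2 times did not overlap in 15 of the 21, where that held for 16.9% of all genes tested. Hsp90aa1, the inducible HSP90, was at 63.7, 68.0, 112 and 103 CPM at ZT12 and 259, 497, 551 and 488 CPM at ZT16 (log2 fold change 2.36 ± 0.17, adjusted p = 0.00233). Hsph1, which recharges HSP70 with ATP, was at 28.2, 36.6, 37.7 and 63.9 CPM at ZT12 and 115, 242, 239 and 252 CPM at ZT16 (log2 fold change 2.35 ± 0.17, adjusted p = 0.00223). In both, every ZT16 library lay above every ZT12 library, and Bmal1 WT replicate 2 was the lowest at ZT16. Hspb1, a small heat shock protein that holds unfolded clients, was at 4.19, 5.1, 3.61 and 3.91 CPM at ZT12 and 16.2, 25.7, 31.2 and 23.9 CPM at ZT16 (log2 fold change 2.51 ± 0.19, adjusted p = 0.00257). Hspa1b, the inducible HSP70, was at 7.61, 5.5, 9.61 and 7.35 CPM at ZT12 and 17.2, 84.3, 47.4 and 69.7 CPM at ZT16 (log2 fold change 2.68 ± 0.44, adjusted p = 0.0188), with the widest spread of these at ZT16. Its near-identical copy Hspa1a had a log2 fold change of 2.23 (adjusted p = 0.235), and reads of the pair may have been split between them by the counting. The constitutive Hspa8 was at 640.1, 709, 905 and 882 CPM at ZT12 and 1408, 2023, 2356 and 2112 CPM at ZT16 and rose by 1.32 on the log2 scale.

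Cochaperones rose with them: Dnajb1, an HSP40, rose by 0.79, Bag3, which hands clients to autophagy, by 1.23, and Stip1, which joins HSP70 to HSP90, by 1.37 on the log2 scale. The mitochondrial pair Hspd1 and Hspe1 had log2 fold changes of 0.18 (adjusted p = 0.404) and 0.40 (adjusted p = 0.0628), and Hsf1, the gene of the factor that drives the group, of 0.14 (adjusted p = 0.525). Opposite to them stood the cold-inducible RNA binding proteins, which are known to fall as temperature rises. Cirbp was at 32.4, 21.6, 22.8 and 18.5 CPM at ZT12 and 14.9, 8.26, 7.59 and 9.32 CPM at ZT16 (log2 fold change -1.27 ± 0.14, adjusted p = 0.00688), so that each ZT16 library lay below each ZT12 library. Rbm3, its relative, was at 40.3, 36.0, 49.4 and 36.9 CPM at ZT12 and 31.1, 28.4, 32.5 and 32.8 CPM at ZT16 (log2 fold change -0.38 ± 0.11, adjusted p = 0.087). Of the heat shock list 9 rose without Bmal1 WT replicate 2 and 8 without Bmal1 WT replicate 4. Leaving out the 2 libraries rich in Saa1, with line means, 13 heat shock genes rose and none fell, and Cirbp had a log2 fold change of -0.97 (adjusted p = 0.0322), or -1.05 (adjusted p = 0.0564) in the fit of the other 22 night-fed wild type libraries.

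The genes of ER folding and the unfolded protein response rose beside them. Of 24 measured 13 passed as higher, where 3.88% of all genes did, and none as lower, with a median of 0.68. The promoters below are those of the 6 members that held the ER stress response element and passed as higher. Those of Calr, Canx and Hsp90b1, which held it and did not pass, are not printed. This element, CCAAT and CCACG with 9 bases of any kind between them, searched on both strands, is the known site of ATF6 with NF-Y and of XBP1. It was in the 250 bases before the start of 9 of the 20 genes of the list for which RefSeq (build GRCm38.p6) gave a promoter, and in 37 of all 32851 promoters (0.113%). The 9 were Calr, Canx, Creld2, Derl3, Dnajc3, Hsp90b1, Hspa5, Pdia6 and Syvn1. A match is a description of the letters only. Each run ends before any annotated exon, and capitals mark the element: Creld2, chr15:88819446-88819645 (+ strand); Derl3, chr10:75893198-75893397 (+ strand); Syvn1, chr19:6046376-6046575 (+ strand); Dnajc3, chr14:118937732-118937931 (+ strand); Pdia6, chr12:17266389-17266544 (+ strand).
Creld2: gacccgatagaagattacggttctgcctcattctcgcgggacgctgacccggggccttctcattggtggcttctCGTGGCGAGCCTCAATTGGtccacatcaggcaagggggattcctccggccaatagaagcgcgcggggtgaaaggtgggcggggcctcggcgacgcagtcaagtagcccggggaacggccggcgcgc
Derl3: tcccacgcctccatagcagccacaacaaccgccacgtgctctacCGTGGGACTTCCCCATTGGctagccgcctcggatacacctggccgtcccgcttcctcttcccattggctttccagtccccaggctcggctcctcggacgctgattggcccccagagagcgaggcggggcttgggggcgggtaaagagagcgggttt
Syvn1: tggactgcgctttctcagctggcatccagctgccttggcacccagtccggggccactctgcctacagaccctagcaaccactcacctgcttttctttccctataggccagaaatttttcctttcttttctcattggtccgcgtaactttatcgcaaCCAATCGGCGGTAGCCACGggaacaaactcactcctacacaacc
Dnajc3: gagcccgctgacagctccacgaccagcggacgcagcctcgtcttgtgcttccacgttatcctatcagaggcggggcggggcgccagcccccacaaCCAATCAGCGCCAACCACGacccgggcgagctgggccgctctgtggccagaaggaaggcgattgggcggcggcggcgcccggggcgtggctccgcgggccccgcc
Pdia6: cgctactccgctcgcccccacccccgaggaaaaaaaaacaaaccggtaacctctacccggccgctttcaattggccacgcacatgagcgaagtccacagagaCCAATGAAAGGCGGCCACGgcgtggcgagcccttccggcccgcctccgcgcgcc
In Hspa5 the element lay inside an exon annotated by GENCODE (chr2:34772025-34772043 (+ strand)), and only the element is given.
Hspa5: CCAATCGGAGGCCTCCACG

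Of the 9 members with the element 6 rose, and of the 11 with a promoter but without it 5 rose. Other elements were searched in the same 250 bases. A fixed pattern of the heat shock element was in 2 of 17 promoters of the heat shock list (0.466% of all promoters). Its holders, Hspd1 and Hspe1, did not pass, and the 13 members with a promoter that passed as higher lacked it. Of 16 core clock promoters, 5 held the clock element E-box (6.02% of all promoters) and 1 the D-box (0.819%). Hspa5, the ER HSP70 known as BiP, was at 497, 492, 598 and 813 CPM at ZT12 and 1142, 3083, 1470 and 2058 CPM at ZT16 (log2 fold change 1.61 ± 0.28, adjusted p = 0.0222). Creld2, an ER stress-induced disulfide isomerase, was at 16.1, 14.1, 29.3 and 34.6 CPM at ZT12 and 74.6, 219, 125 and 148 CPM at ZT16 (log2 fold change 2.56 ± 0.34, adjusted p = 0.0105). Bmal1 WT replicate 4 had the highest and Bmal1 WT replicate 2 the lowest ZT16 value of both, and neither time overlapped with the other. Sdf2l1, a partner of BiP, was at 10.7, 9.21, 11.2 and 11.5 CPM at ZT12 and 34.4, 92.7, 40.6 and 53.0 CPM at ZT16 (log2 fold change 2.26 ± 0.28, adjusted p = 0.0093). Syvn1, the ubiquitin ligase that clears misfolded ER proteins, was at 60.9, 67.2, 64.0 and 86.2 CPM at ZT12 and 162, 526, 192 and 296 CPM at ZT16 (log2 fold change 1.92 ± 0.27, adjusted p = 0.0122). Derl3, of the same disposal route, was at 0.59, 1.75, 0.993 and 1.01 CPM at ZT12 and 2.62, 19.1, 2.00 and 5.11 CPM at ZT16 (log2 fold change 2.30 ± 0.42, adjusted p = 0.0248), and its ZT16 level in Bmal1 WT replicate 4 was far above the other 3. Bmal1 WT replicate 4 at ZT16, highest in each of these 5 genes, was also the shallowest of the 8 libraries, and the part of depth in the values was not tested.

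Smaller rises were seen in Pdia6, a disulfide isomerase (0.63), Dnajc3, an inhibitor of the kinase PERK (0.72), and Manf, a secreted ER stress protein (1.51 on the log2 scale). Calr and Hsp90b1, which hold the ER stress response element too, had 0.62 (adjusted p = 0.0593) and 0.79 (adjusted p = 0.0514). Of the transcription factors of the list, Xbp1 had a log2 fold change of -0.15 (adjusted p = 0.636), and Atf6 of 0.14 (adjusted p = 0.43). Herpud1, an ER membrane protein of the disposal route, which holds the related element of ATTGG, 1 base of any kind and CCACG (in 0.0304% of all promoters), had 0.01 (adjusted p = 0.985). Without the 2 libraries rich in Saa1, 2 of the 24 rose with the series as blocks, 8 with line means and 11 in the fit of 22 libraries, and none fell. Without Bmal1 WT replicate 2 as a series, 1 of the 24 rose, without Bmal1 WT replicate 4 7 rose, and without Cry WT replicate 9 8 rose. With line means and without the 2 libraries Hspa5 had 1.61 (adjusted p = 0.0538) and Derl3 2.24 (adjusted p = 0.135).

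**Figure D2:**
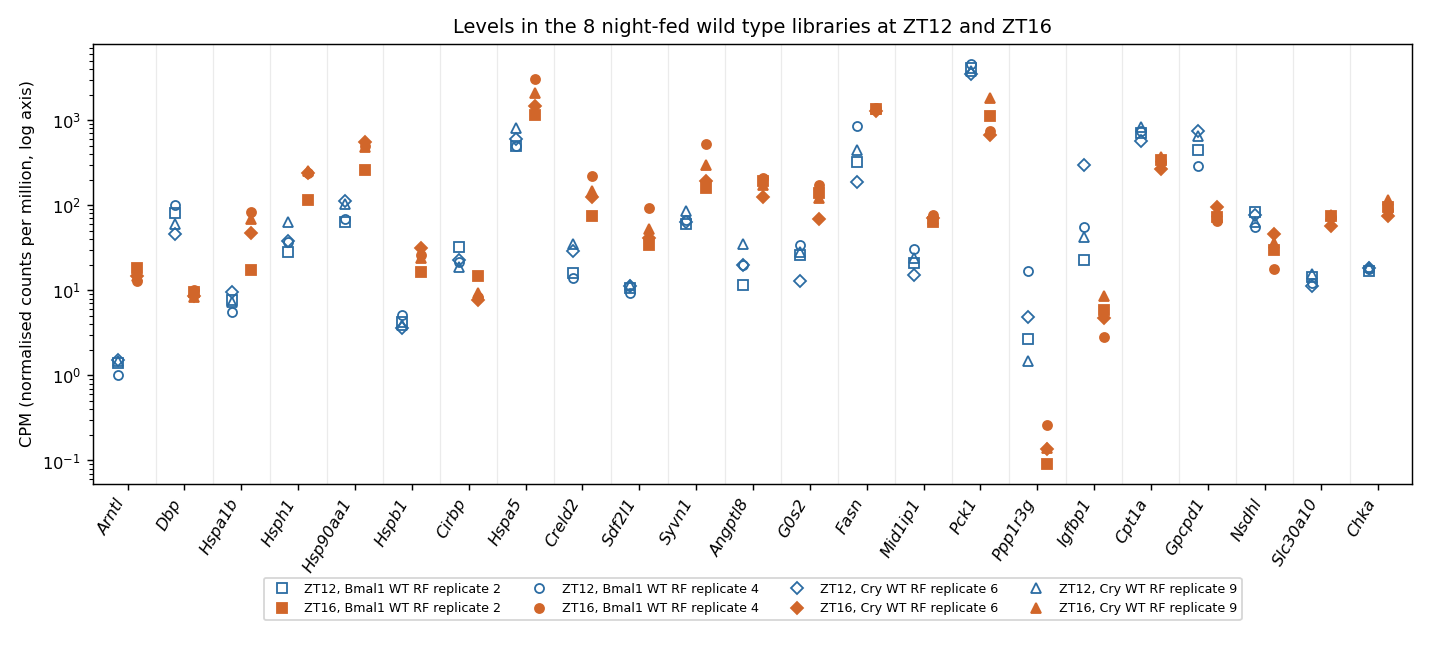
Level of 23 genes (x axis) in each of the 8 night-fed wild type libraries (y axis, CPM on a log axis; open blue, ZT12; filled orange, ZT16; 1 symbol shape per replicate series). Hsp90aa1 ran from 63.7 to 112 CPM at ZT12 and from 259 to 551 CPM at ZT16, and Pck1 from 3516 to 4571 and from 666 to 1825 CPM.

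The core clock changed in both directions. Of 18 measured members 6 rose and 5 fell, where 3.88% and 3.74% of all genes did. Arntl was at 1.42, 1.02, 1.51 and 1.47 CPM at ZT12 and 18.1, 12.8, 14.9 and 14.9 CPM at ZT16 (log2 fold change 3.47 ± 0.16, adjusted p = 0.000549), the highest fold of the list and leaving no overlap. Its partner Clock was at 32.4, 27.7, 28.4 and 40.2 CPM at ZT12 and 71.9, 81.2, 93.9 and 93.4 CPM at ZT16 (log2 fold change 1.40 ± 0.12, adjusted p = 0.00352). Cry1, the late repressor, rose by 1.56 and Per2 by 1.15 on the log2 scale. The 5 that fell, Dbp, Nr1d1, Nr1d2, Ciart and Per1, are known targets of BMAL1 and CLOCK, as are Per2 and Cry1 among those that rose. Dbp, a PAR bZIP factor, was at 81.8, 101, 45.8 and 60.5 CPM at ZT12 and 9.51, 10.1, 8.68 and 8.28 CPM at ZT16 (log2 fold change -2.92 ± 0.15, adjusted p = 0.000806). Nr1d1 (REV-ERB alpha) fell by 1.57 and Nr1d2 (REV-ERB beta) by 1.37, with no overlap in either. Per1 fell by 0.70 on the log2 scale although its libraries overlapped, with each series lower at ZT16. In the fit with line means and without the 2 libraries rich in Saa1, 7 members rose and 7 fell.

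Of 14 gluconeogenesis genes 5 fell, where 3.74% of all genes did, and none rose. Pck1, the rate-limiting enzyme, was at 4129, 4571, 3516 and 3764 CPM at ZT12 and 1106, 743, 666 and 1825 CPM at ZT16 (log2 fold change -2.002 ± 0.28, adjusted p = 0.0122), with no ZT16 library above 1825 CPM. Ppargc1a, the coactivator that turns on the fasting program, was at 16.8, 19.6, 20.6 and 18.9 CPM at ZT12 and 6.57, 6.71, 7.93 and 10.5 CPM at ZT16 (log2 fold change -1.27 ± 0.15, adjusted p = 0.00805). Got1, an aspartate aminotransferase, fell by 1.12, Aqp9, the glycerol channel, by 0.82 and Foxo1 by 0.51 on the log2 scale. G6pc, the last enzyme of the route, was at 208, 348, 143 and 554 CPM at ZT12 and 353, 152, 239 and 291 CPM at ZT16, overlapping widely (log2 fold change -0.16 ± 0.35, adjusted p = 0.808). None of the 14 passed without Bmal1 WT replicate 2 or without Bmal1 WT replicate 4, while without the 2 libraries rich in Saa1, with line means, 6 fell.

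Among 20 genes of insulin signalling and targets of FOXO, 3 fell and 1 rose, where 3.74% and 3.88% of all genes did. The 1 rise is close to that share. With no replicate block 4 fell and none rose, and in the fit of 22 libraries without the 2 rich in Saa1 none fell and 1 rose. None passed without Bmal1 WT replicate 2 or without Bmal1 WT replicate 4. Igfbp1, a FOXO1 target that insulin represses, was at 22.7, 56.1, 298 and 42.7 CPM at ZT12 and 5.92, 2.84, 4.68 and 8.52 CPM at ZT16 (log2 fold change -3.53 ± 0.70, adjusted p = 0.032). Cry WT replicate 6 at ZT12 was far above the others, yet the lowest ZT12 value exceeded the highest at ZT16. In the fit of 22 libraries Igfbp1 had -2.95 (adjusted p = 0.124). Irs2, the insulin receptor substrate of the fasted liver, was at 34.9, 26.4, 46.6 and 16.9 CPM at ZT12 and 14.7, 13.0, 11.4 and 13.2 CPM at ZT16 (log2 fold change -1.17 ± 0.27, adjusted p = 0.0453), and Irs1, its counterpart after feeding, at 11.6, 13.2, 5.004 and 13.4 CPM at ZT12 and 14.9, 24.3, 18.6 and 25.7 CPM at ZT16 (log2 fold change 1.01 ± 0.22, adjusted p = 0.0434). The 2 libraries rich in Saa1 were highest in Irs2 and lowest in Irs1 at ZT12. Without them Irs2 had -0.66 (adjusted p = 0.0328) with line means, -0.64 (adjusted p = 0.238) with the series as blocks and -0.61 (adjusted p = 0.415) in the fit of 22 libraries. Irs1 had 0.66 (adjusted p = 0.105) without them with line means, and 0.97 (adjusted p = 0.0795) with all 8 libraries and no replicate block. Sik1, a kinase induced by glucagon, was at 47.4, 61.0, 68.5 and 45.4 CPM at ZT12 and 29.2, 33.0, 27.4 and 29.3 CPM at ZT16 (log2 fold change -0.89 ± 0.14, adjusted p = 0.0177). In the fits of 24 and of 22 libraries Sik1 had -0.90 (adjusted p = 0.121) and -0.92 (adjusted p = 0.267).

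The glycogen-targeting subunits, which bring protein phosphatase 1 to glycogen, moved in opposite directions. Ppp1r3g was at 2.71, 17.1, 4.88 and 1.47 CPM at ZT12 and 0.0919, 0.258, 0.136 and 0.139 CPM at ZT16 (log2 fold change -4.85 ± 0.40, adjusted p = 0.00315), the largest fall of the 18 glucose and glycogen genes. Ppp1r3b, the main liver subunit, was at 150.5, 266, 144 and 518 CPM at ZT12 and 758, 678, 825 and 830.2 CPM at ZT16 (log2 fold change 1.72 ± 0.30, adjusted p = 0.0223). No other gene of this list passed, and 1 call in each direction is close to the share over all genes (3.88% higher, 3.74% lower). The 2 ZT12 libraries rich in Saa1 were the lowest of the 4 in Ppp1r3b, and without them its log2 fold change with line means was 1.07 (adjusted p = 0.0125).

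Fat synthesis rose in part. Of 20 genes of lipogenesis and NADPH supply 4 passed as higher, where 3.88% of all genes did, and none as lower, with a median of 0.38. Fasn, fatty acid synthase, was at 321, 860.5, 188 and 447 CPM at ZT12 and 1360, 1380, 1288 and 1356 CPM at ZT16 (log2 fold change 1.78 ± 0.31, adjusted p = 0.0217). The ZT16 libraries lay within a narrow range and all above ZT12. Mid1ip1, which helps acetyl-CoA carboxylase to polymerise, was at 20.9, 30.5, 15.1 and 23.9 CPM at ZT12 and 63.9, 76.2, 70.4 and 68.7 CPM at ZT16 (log2 fold change 1.66 ± 0.14, adjusted p = 0.00331). Srebf1, the gene of SREBP-1c, was at 265, 499.9, 128 and 226 CPM at ZT12 and 640.2, 608, 327 and 546 CPM at ZT16 (log2 fold change 1.04 ± 0.19, adjusted p = 0.0241), with overlap between the times but each series higher at ZT16. Elovl6, which lengthens palmitate, was at 118, 213, 59.6 and 218 CPM at ZT12 and 318, 308, 254 and 345 CPM at ZT16 (log2 fold change 1.17 ± 0.24, adjusted p = 0.0351). The carboxylases Acaca and Acacb had 0.60 (adjusted p = 0.149) and 0.47 (adjusted p = 0.522), and Scd1, the stearoyl-CoA desaturase, 0.02 (adjusted p = 0.976). At ZT12 the 2 libraries rich in Saa1 were the lowest of the 4 in Fasn, Mid1ip1 and Elovl6. Without them, with line means, Fasn had 1.12 (adjusted p = 0.0146), Mid1ip1 1.40 (adjusted p = 0.00183), Elovl6 0.54 (adjusted p = 0.0455) and Srebf1 0.65 (adjusted p = 0.11). With all 8 libraries and no replicate block, Elovl6 had 1.03 (adjusted p = 0.098). In the fit of 22 libraries Elovl6 had 0.58 (adjusted p = 0.247) and Srebf1 0.64 (adjusted p = 0.17). Of the list, 3 rose and 1 fell without the 2 libraries with line means, and 2 rose and 1 fell in the fit of 22 libraries. Without Bmal1 WT replicate 2 as a series 1 of the 20 rose, and without Bmal1 WT replicate 4 4 rose.

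Of 24 cholesterol synthesis genes 6 fell, where 3.74% of all genes did, and none rose with the series as blocks, with a median of -0.30. With no replicate block 3 fell and 1 rose, and in the fit of 24 libraries 5 fell and 2 rose. Msmo1, a sterol methyl oxidase, was at 296, 159, 271 and 172 CPM at ZT12 and 66.4, 53.6, 147 and 85.9 CPM at ZT16 (log2 fold change -1.40 ± 0.22, adjusted p = 0.016), and Nsdhl, the enzyme after it, at 84.3, 55.3, 77.1 and 63.2 CPM at ZT12 and 29.6, 17.7, 45.7 and 35.6 CPM at ZT16 (log2 fold change -1.18 ± 0.17, adjusted p = 0.0122). In both genes the times did not overlap. Mvk, mevalonate kinase, was at 25.1, 10.4, 28.1 and 13.8 CPM at ZT12 and 7.39, 5.55, 11.7 and 8.48 CPM at ZT16 (log2 fold change -1.18 ± 0.20, adjusted p = 0.0204), and here the 2 ZT12 libraries rich in Saa1 were the highest of the 4. Cyp51, Fdft1 and Hsd17b7 fell by 0.73, 0.65 and 0.63 on the log2 scale. Insig1, a brake on SREBPs that insulin induces, had 0.88 (adjusted p = 0.053). With both libraries left out, 2 genes fell and 1 rose with line means, and none fell and 3 rose in the fit of 22 libraries. None passed without Bmal1 WT replicate 2 or without Bmal1 WT replicate 4 as a series. In the fits with line means and of 22 libraries, Nsdhl had -0.89 (adjusted p = 0.0417) and -0.96 (adjusted p = 0.0992), and Msmo1 -0.97 (adjusted p = 0.0521) and -1.002 (adjusted p = 0.0697).

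**Figure D3:**
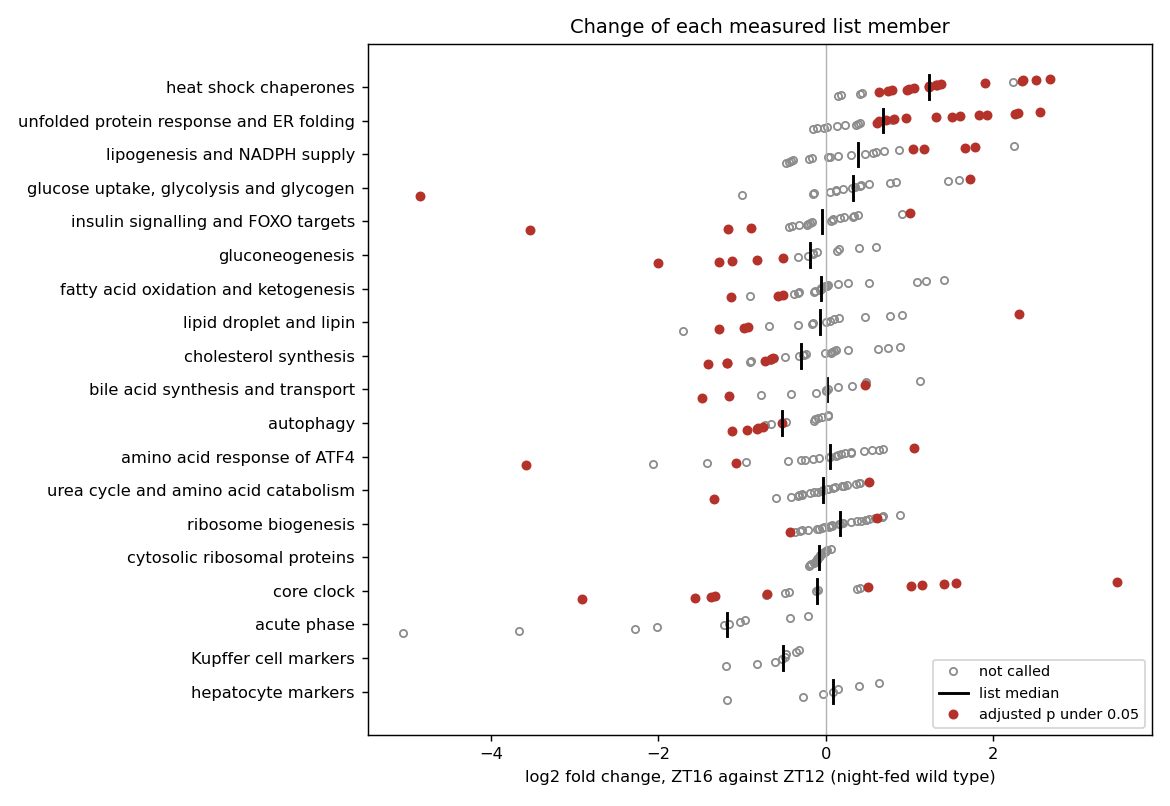
log2 fold change of ZT16 against ZT12 (x axis) of each measured member of 19 gene lists (y axis; filled red, adjusted p under 0.05; open grey, not called; black bar, list median). All red points of the heat shock and ER folding lists lie to the right of 0, and all those of gluconeogenesis, cholesterol synthesis and autophagy to its left.

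Of 23 oxidation and ketogenesis genes 3 fell, where 3.74% of all genes did, and none rose. In each of the fits that left out 1 series, 1 fell. Cpt1a, which admits fatty acids to mitochondria, was at 699, 744, 562 and 824 CPM at ZT12 and 339, 319, 269 and 365 CPM at ZT16 (log2 fold change -1.13 ± 0.11, adjusted p = 0.00475), with no overlap. Eci2, an enoyl-CoA isomerase, and Bdh1, a ketone body dehydrogenase, fell by 0.58 and 0.51 on the log2 scale. Pnpla2, the triglyceride lipase ATGL, was at 99.8, 105, 89.4 and 113 CPM at ZT12 and 48.2, 58.2, 55.0 and 52.0 CPM at ZT16 (log2 fold change -0.93 ± 0.10, adjusted p = 0.00688). Its inhibitor G0s2 moved opposite, from 26.1, 34.2, 12.8 and 28.5 CPM at ZT12 to 138, 172, 69.6 and 120.4 CPM at ZT16 (log2 fold change 2.31 ± 0.10, adjusted p = 0.000378), again with no overlap. Plin4, a lipid droplet coat protein, fell by 0.97 with overlap, and had -1.06 (adjusted p = 0.0618) with no replicate block and -1.07 (adjusted p = 0.198) in the fit of 24 libraries. Of the phosphatidate phosphatases, Lpin2 fell by 1.27, and Lpin1 had -1.70 (adjusted p = 0.0828). For Lpin1, Cry WT replicate 9 at ZT12 held 1775 CPM against 196 to 452 in the other 3. Without the 2 libraries rich in Saa1 Lpin1 had -2.44 (adjusted p = 0.00168) with line means. It then had -2.76 (adjusted p = 0.027) with the series as blocks and -2.11 (adjusted p = 0.045) in the fit of 22 libraries.

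The angiopoietin-like regulators of lipoprotein lipase moved in opposite directions. Angptl8, which is made after feeding, was at 11.6, 19.9, 19.8 and 34.6 CPM at ZT12 and 192, 208, 123 and 174 CPM at ZT16 (log2 fold change 3.08 ± 0.28, adjusted p = 0.00393). Angptl4, which is made in fasting, was at 78.6, 90.8, 103 and 134 CPM at ZT12 and 44.2, 27.5, 47.7 and 66.0 CPM at ZT16 (log2 fold change -1.17 ± 0.14, adjusted p = 0.00872). Both were without overlap, and of the 15 hepatokines no other passed. For a list of this size, 1 call in each direction is close to the share over all genes (3.88% higher, 3.74% lower). Fgf21, the fasting hepatokine, was under 2 CPM in every library, at 0.354, 1.75, 0.477 and 0.155 CPM at ZT12 and 0.827, 0.516, 0 and 0.0696 CPM at ZT16.

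Autophagy genes fell: 6 of 15, where 3.74% of all genes did, none higher, with a median of -0.53. Ulk1, the kinase that starts autophagy, was at 89.5, 122, 122 and 125 CPM at ZT12 and 54.8, 44.7, 48.4 and 63.7 CPM at ZT16 (log2 fold change -1.12 ± 0.14, adjusted p = 0.00903). Gabarapl1, an ATG8 of the autophagosome membrane, was at 197, 248, 143 and 205 CPM at ZT12 and 106, 124, 87.5 and 92.1 CPM at ZT16 (log2 fold change -0.95 ± 0.10, adjusted p = 0.00684). Map1lc3b, the ATG8 known as LC3B, fell by 0.83, Ctsl, a lysosomal protease, by 0.81, Atg14 by 0.75 and Pik3c3, the lipid kinase that ATG14 directs, by 0.53 on the log2 scale. The times did not overlap in these 6 of the 15, where that held for 16.9% of all genes tested. Without the 2 libraries rich in Saa1, with line means, 8 of the 15 fell and none rose. Without Bmal1 WT replicate 2 as a series 2 fell, and without Bmal1 WT replicate 4 1 fell.

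Of 14 bile acid genes 2 fell and 1 rose, and of 23 genes of the urea cycle and amino acid catabolism 1 fell and 1 rose. Over all genes 3.88% rose and 3.74% fell, and 1 call in a list of this size is close to that share. Abcg5 and Abcg8, the partners of the sterol exporter into bile, fell together: Abcg8 was at 104, 178, 92.9 and 134 CPM at ZT12 and 58.8, 48.8, 33.7 and 40.5 CPM at ZT16 (log2 fold change -1.47 ± 0.16, adjusted p = 0.00717), and Abcg5 fell by 1.15. Baat, which conjugates bile acids, rose by 0.47, and Cyp7a1, the rate-limiting enzyme of bile acid synthesis, was at 253, 180.5, 96.5 and 217 CPM at ZT12 and 296, 410, 424 and 427 CPM at ZT16 (log2 fold change 1.12 ± 0.28, adjusted p = 0.056). Sds, serine dehydratase, was at 134, 254, 152 and 255 CPM at ZT12 and 76.6, 55.5, 95.8 and 80.2 CPM at ZT16 (log2 fold change -1.33 ± 0.24, adjusted p = 0.0241), and Nags, which makes the activator of the urea cycle, rose by 0.51. Among the 23 measured genes of the amino acid response of ATF4, 2 fell and 1 rose. Chac1, a glutathione-degrading enzyme, was at 3.72, 2.62, 19.1 and 7.39 CPM at ZT12 and 2.07, 0.129, 0.407 and 0.348 CPM at ZT16 (log2 fold change -3.58 ± 0.80, adjusted p = 0.0437). Without the 2 libraries rich in Saa1 Chac1 had -2.72 (adjusted p = 0.074) with line means. It then had -4.35 (adjusted p = 0.0422) with the series as blocks and -2.92 (adjusted p = 0.0213) in the fit of 22 libraries. Sesn2, a leucine sensor, fell by 1.08, and Ddit3 (CHOP) rose by 1.06 on the log2 scale. Of 20 cytosolic ribosomal protein genes none passed, with log2 fold changes from -0.20 to 0.06, and of 29 ribosome biogenesis genes 1 rose (Bop1, 0.61) and 1 fell (Npm1, -0.43), likewise close to the share over all genes. The log2 fold change was above 0 in 20 of the 29 ribosome biogenesis genes. In the fit of 24 libraries 7 of them rose and 2 fell, and in the fit of 22 libraries 1 rose and 2 fell. Without Cry WT replicate 9 as a series 9 rose, and without any other series 0 passed.

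Several of the largest changes lay outside these lists. Clic3, an intracellular chloride channel protein, was at 1.77, 0.437, 1.11 and 1.01 CPM at ZT12 and 15.9, 15.4, 10.2 and 14.3 CPM at ZT16 (log2 fold change 3.74 ± 0.34, adjusted p = 0.00393), and Atp2b2, a plasma membrane calcium pump, at 0.649, 0.51, 0.397 and 0.503 CPM at ZT12 and 5.6, 5.94, 8.81 and 4.28 CPM at ZT16 (log2 fold change 3.54 ± 0.29, adjusted p = 0.00315). Slc30a10, a manganese exporter, was at 14.3, 12.1, 11.1 and 15.5 CPM at ZT12 and 74.5, 71.9, 57.6 and 76.6 CPM at ZT16 (log2 fold change 2.402 ± 0.10, adjusted p = 0.000378), and Chka, choline kinase, at 16.7, 17.6, 18.1 and 18.7 CPM at ZT12 and 96.5, 88.4, 74.3 and 116 CPM at ZT16 (log2 fold change 2.38 ± 0.13, adjusted p = 0.0011). In all 4 the lowest ZT16 library was above the highest at ZT12. Tubb2a, Tmie, Dtx4 and AC157910.3 rose by 2.53, 2.43, 2.35 and 2.41 on the log2 scale. Gpcpd1, which breaks down glycerophosphocholine to free choline, was at 444, 289.9, 751 and 652 CPM at ZT12 and 72.5, 66.1, 95.8 and 84.2 CPM at ZT16 (log2 fold change -2.68 ± 0.18, adjusted p = 0.00223), the opposite direction to Chka, which uses choline. Slc7a2, a carrier of cationic amino acids, was at 1559, 2079, 1093 and 1461 CPM at ZT12 and 364, 291, 348 and 532 CPM at ZT16 (log2 fold change -2.01 ± 0.23, adjusted p = 0.00805). Hdc, histidine decarboxylase, fell by 2.09, Fabp5, a fatty acid carrier, by 2.02, and Rgs16, a brake on G protein signals that is induced in the fasted liver, by 2.71 on the log2 scale. Fabp5 had -2.04 (adjusted p = 0.0532) in the fit of 24 libraries, and without the 2 libraries rich in Saa1 -1.40 (adjusted p = 0.0184) with line means and -1.49 (adjusted p = 0.311) in the fit of 22 libraries. Rgs16 at ZT12 was at 16.8, 39.4, 2.94 and 53.9 CPM, lowest in Cry WT replicate 6, and without the 2 libraries rich in Saa1 its value with line means was -3.94 (adjusted p = 0.000877).

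Some of the largest falls were in genes, immune genes among them, with high ZT12 levels in 1 or both of the libraries that stood apart. Moxd1 was at 38.2, 0.51, 18.0 and 0.0774 CPM at ZT12 and 0.276, 0.387, 0 and 0 CPM at ZT16, S100a8, a neutrophil protein, at 1.95, 0.182, 38.5 and 0.0387 CPM at ZT12 and 0.138, 0.129, 0.0678 and 0.0348 CPM at ZT16, and Ighg2c, an antibody constant region, at 2.54, 0.51, 68.7 and 0.0387 CPM at ZT12 and 0.276, 0, 4.54 and 0 CPM at ZT16. Their log2 fold changes were -7.05, -6.61 and -3.82, all past the threshold, and the times overlapped in each. Il1rn, the interleukin 1 receptor antagonist, was high in Cry WT replicate 6 alone, at 1.59, 3.28, 108 and 1.7 CPM at ZT12 and 0.459, 0.129, 0.542 and 0.209 CPM at ZT16 (log2 fold change -5.48 ± 1.07, adjusted p = 0.0302), and Igha at 17.5, 4.99, 19.3 and 0.968 CPM at ZT12 and 2.8, 1.81, 3.19 and 0.626 CPM at ZT16. In the fit of 24 libraries Moxd1, S100a8 and Ighg2c passed, and Igha had -2.08 (adjusted p = 0.0585). In the fit of the 22 libraries without these 2, Moxd1 had -0.25 (adjusted p = 0.943), S100a8 -0.57 (adjusted p = 0.728), Ighg2c -2.09 (adjusted p = 0.266) and Igha -1.42 (adjusted p = 0.396), none of them past the threshold, and Il1rn had -3.02 (adjusted p = 0.0147). Of 10 acute phase genes none passed with the series as blocks, with a median of -1.18, and of 8 Kupffer cell markers none passed, with a median of -0.51. In the fit of 24 libraries 8 of the 10 acute phase genes fell, and in the fit of 22 libraries 1 fell. Without the 2 libraries, with line means, 2 of them fell. Of the Kupffer cell markers 3 fell without Cry WT replicate 9 as a series. Of 9 B and T cell markers 2 fell, where 3.74% of all genes did, among them Cd79a (-1.73), which was under 2 CPM in every library. In bulk liver, fewer cells of a type and less RNA per cell cannot be told apart.

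The other lists held few calls, beside 3.88% higher and 3.74% lower over all genes. Of 20 immediate early genes 2 fell, Maff (-1.57) and Zfp36 (-0.47), and of 13 glucocorticoid targets 2 fell, Klf9 (-0.98) and Pim3 (-0.85), while Tsc22d3 (GILZ) rose (0.73). Ccne1, cyclin E1, fell (-1.52), the only call of 12 cell cycle genes, as did Usp18 (-0.80) of 12 interferon genes. A single call in a list of this size is close to the share over all genes. Of 3 neutrophil markers measured Ngp and S100a8 were called lower. At ZT12 Ngp was at 17.8 CPM in Cry WT replicate 6 and at most 0.59 CPM in the other libraries. DESeq2 called neither Ngp (adjusted p = 0.656) nor S100a8 (adjusted p = 0.162), and limma-voom did not call Ngp (adjusted p = 0.0965). Of the markers of hepatocytes, endothelium, stellate cells, cholangiocytes, erythroid cells, adipocytes and exocrine pancreas none passed. Without the 2 libraries rich in Saa1, with line means, 4 of 8 endothelial markers and 1 of 6 cholangiocyte markers were called higher and 1 of 7 hepatocyte markers lower. Of the endothelial markers none was called with the series as blocks or in the fit of 22 libraries. Summed endothelial markers were at 343 and 383 CPM in the 2 libraries rich in Saa1, at 228 and 252 CPM in the other 2 of ZT12 and at 294 to 351 CPM at ZT16, and their part in the other results was not tested.

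Hyou1, which is named below and passed as higher, is left out of the following counts. Of 100 other genes named here that passed at meal onset, 83 passed in the same direction with no replicate block and 88 in the fit of 24 libraries. Those that did not pass with no block were Bdh1, Chac1, Cyp51, Derl3, Elovl6, Fdft1, Ighg2c, Igha, Il1rn, Irs1, Moxd1, Mvk, Plin4, Tsc22d3 and Usp18, beside Ngp and S100a8, which were not tested there. In the fit of 24 libraries they were Abcg5, Bdh1, Cyp51, Fabp5, Got1, Igha, Per1, Plin4, Sik1, Usp18 and Zfp36, beside Ngp, which was not tested. Without the 2 libraries rich in Saa1, 35 of the 100 passed with the series as blocks, 76 with line means and 66 in the fit of 22 libraries. Among those that then passed neither with line means nor in the fit of 22 libraries were the chaperone genes Dnajb1, Pdia6 and Derl3, the cholesterol synthesis genes Msmo1, Mvk, Hsd17b7, Cyp51 and Fdft1, and Srebf1, Irs1, Tsc22d3, Bop1 and Cd79a. Leaving out 1 series, 38 passed without Bmal1 WT replicate 2, 41 without Bmal1 WT replicate 4, 81 without Cry WT replicate 6 and 80 without Cry WT replicate 9.

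Under ad libitum feeding, 1257 of 16051 genes (7.83%) passed between ZT12 and ZT16, with 575 higher (3.58%) and 682 lower (4.25%). Here Cry WT AL replicate 2 stood apart: summed interferon response genes were at 1558 CPM at ZT12 and 633 CPM at ZT16, against 259 to 295 and 263 to 338 CPM in the other 3 series. Without it 470 genes passed, and 364 without Bmal1 WT AL replicate 1. Of the heat shock list 13 of 21 rose in AL and of the ER folding list 10 of 24, and none fell in either. All of these were among the members that rose in RF. Without Cry WT AL replicate 2, 11 of the heat shock list rose and none of the ER folding list. Of ribosome biogenesis 8 of 29 rose in AL, and 1 without that series. Hsp90aa1 rose by 2.26 ± 0.22 in AL, Creld2 by 2.34 ± 0.52 and Angptl8 by 2.91 ± 0.32 on the log2 scale; without Cry WT AL replicate 2 Creld2 had 1.92 ± 0.57 (adjusted p = 0.108). Of the difference between the steps, RF minus AL, edgeR called 0 of 16051 genes (0 of 15923 without Cry WT AL replicate 2), and 808 had an unadjusted p under 0.05. By DESeq2 12 passed and by limma-voom 1. A p that misses the threshold does not show that the steps were alike. The difference was 0.08 ± 0.29 for Hsp90aa1, 0.21 ± 0.70 for Creld2 and 0.57 ± 0.43 for Fasn, each within 2 SE of 0.

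The following differences did not pass adjustment and are given as values. For cholesterol synthesis the median difference over the 24 genes was -0.46, and 12 of them had an unadjusted p under 0.05, all lower; without Cry WT AL replicate 2 the median was -0.40, and 6 had such a p. Hmgcs1, the first committed step of the route, had an RF minus AL difference of -1.13 ± 0.35 and Nsdhl of -0.58 ± 0.19. The 2 libraries rich in Saa1 were the highest of the 4 at ZT12 in Hmgcs1, Nsdhl and Msmo1. In the fit of 24 libraries the RF step was -0.96 (adjusted p = 0.0656) for Hmgcs1, -1.11 for Nsdhl and -1.38 for Msmo1. In the fit of 22 libraries without these 2 it was -0.19 (adjusted p = 0.822), -0.96 and -1.002. Without them 0 of 16871 genes passed in the RF minus AL difference, and their part in the value of each gene was not tested. Pck1 was at a mean of 1085 CPM at ZT16 in RF and 407 CPM in AL, with a difference of 1.24 ± 0.33. Sik1 had a step of 0.42 ± 0.20 (adjusted p = 0.22) in AL and a difference of -1.32 ± 0.27. At ZT12 it was at 45.4 to 68.5 CPM in RF and 12.6 to 28.3 CPM in AL, and at ZT16 at 27.4 to 33.0 and 22.9 to 33.9 CPM.

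**Figure D4:**
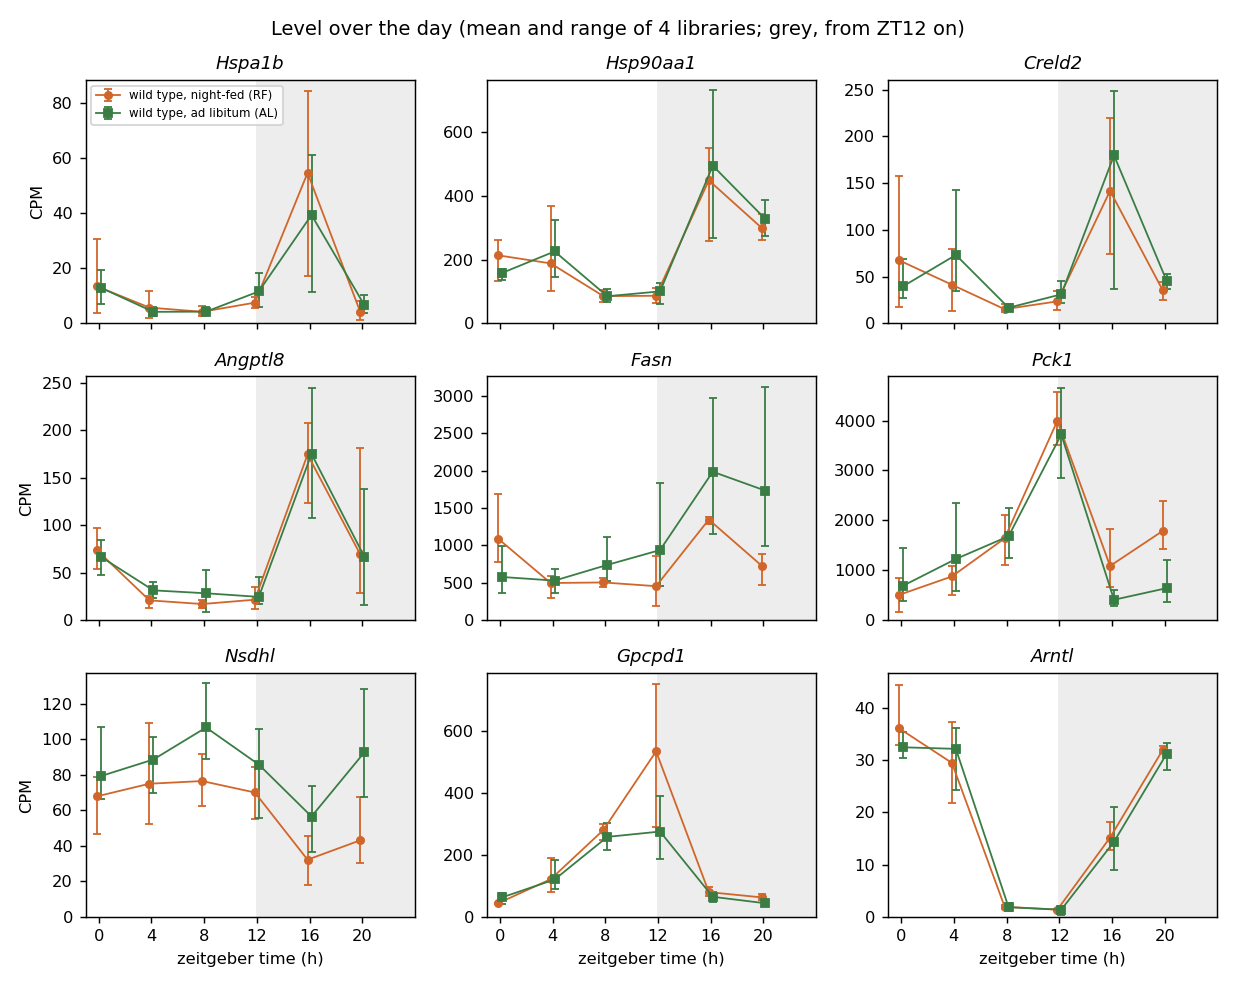
Level of 9 genes (y axis, CPM) over 6 times of day (x axis, ZT in hours; grey, from ZT12 on) in wild type livers, night-fed (orange circles) and ad libitum (green squares); points are means and bars the range of 4 libraries. Hspa1b peaked at ZT16 in both regimens, at 54.6 CPM in night-fed and 39.3 CPM in ad libitum mice, and Pck1 peaked at ZT12, at 3995 and 3721 CPM.

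Seen over the whole day, the genes of this step had different shapes. Hspa1b was highest at ZT16: its night-fed mean was 7.52 CPM at ZT12, 54.6 at ZT16 and 4.13 at ZT20. Creld2 went from 23.5 to 142 and back to 35.3 CPM, and Angptl8 from 21.5 to 174 and to 69.1 CPM. Hsp90aa1 went from 449 CPM at ZT16 to 299.8 at ZT20. Fasn was at 1346 CPM at ZT16, 730.1 at ZT20 and again 1092 at ZT0. Pck1 climbed through the day from 506 CPM at ZT0 to 1638 at ZT8 and 3995 at ZT12. Gpcpd1 climbed likewise, from 43.4 to 534 CPM, and dropped to 79.7 at ZT16. Arntl went from 15.2 CPM at ZT16 to 32.0 at ZT20.

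The step was also read in night-fed knockouts, 2 pairs of libraries each. In Bmal1 KO, Arntl counts over the whole gene were at 15.9 to 18.2 CPM at ZT12 and 14.0 to 21.3 CPM at ZT16, which does not check the deleted part. In Cry KO, Cry1 was at 5.86 to 11.6 CPM at ZT12 and 8.36 to 9.83 CPM at ZT16, and Cry2 at 13.1 to 25.8 and 18.7 to 19.8 CPM. In wild type Cry1 was at 9.61 to 16.5 and 32.4 to 45.4 CPM and Cry2 at 37.3 to 58.8 and 40.2 to 52.7 CPM. The difference of the step from wild type was called for 7 of 16237 genes in Bmal1 KO (0.0431%) and 3 in Cry KO (0.0185%). Arntl, Dbp and Slc30a10 passed in both, and both differences share the wild type libraries. Slc30a10 stood at 86.6 to 103 CPM at ZT12 and 84.1 to 97.4 at ZT16 in Bmal1 KO and at 77.2 to 84.6 and 85.8 to 109.6 in Cry KO, against 11.1 to 15.5 and 57.6 to 76.6 CPM in wild type. In Bmal1 KO, Celsr1, a cadherin of planar polarity, Chka, Trim12a and Moxd1 passed too. Celsr1 was at 7.9 to 13.7 CPM at ZT12 and 39.8 to 51.5 at ZT16 in wild type and at 18.4 to 25.5 and 17.2 to 21.3 in Bmal1 KO. Trim12a, which has near-identical copies, was listed at 0 in both Bmal1 KO libraries of ZT12 and at 0 and 3.02 CPM at ZT16. Moxd1 ran from 0.115 to 383 CPM at ZT16 in Bmal1 KO, and in wild type the 2 libraries rich in Saa1 held its high ZT12 values. Dbp was at 2.22 to 2.54 and 2.36 to 3.36 CPM in Bmal1 KO and at 50.6 to 59.8 and 57.3 to 65.3 CPM in Cry KO. Without the 2 wild type libraries rich in Saa1 the counts were 2 and 1.

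The lists with the most calls in wild type had these median steps in the knockouts: heat shock chaperones 0.26 in Bmal1 KO and 0.38 in Cry KO beside 1.23 in wild type, and ER folding 0.59 and 0.27 beside 0.68. No test of a list was made. Hsp90aa1 had a step of 1.12 ± 0.26 in Bmal1 KO and 0.75 ± 0.26 in Cry KO, Creld2 of 1.24 ± 0.45 and 0.49 ± 0.46, and Angptl8 of 0.46 ± 0.63 and 0.82 ± 0.61. The wild type values were 2.36, 2.56 and 3.08. Pck1 had -1.42 ± 0.72 and -2.12 ± 0.64 beside -2.002 in wild type, and Igfbp1 -2.81 ± 1.87 and -2.42 ± 1.32. Cholesterol synthesis had a median step of 1.2 in Bmal1 KO, 0.06 in Cry KO and -0.30 in wild type. None of the differences of these 5 genes passed adjustment, with 1340 genes at an unadjusted p under 0.05 for Bmal1 KO and 1319 for Cry KO. Within the knockouts alone, the step called 0 genes in each, with 851 and 1058 at an unadjusted p under 0.05. Between the 2 wild type lines edgeR called 0 of 15604 genes, 466 reached an unadjusted p under 0.05, and DESeq2 called 13.

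**Figure D5:**
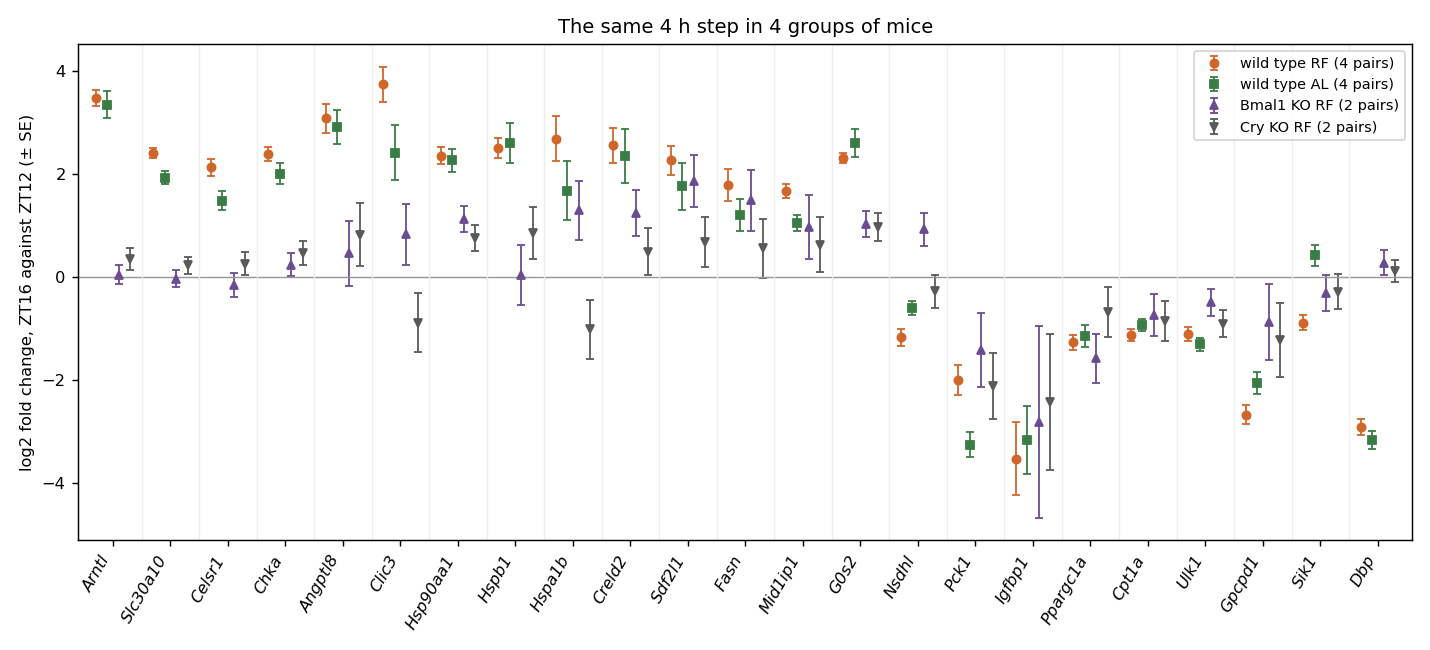
log2 fold change of ZT16 against ZT12 (y axis, with SE as bars) of 23 genes (x axis) in night-fed wild type, ad libitum wild type, night-fed Bmal1 KO and night-fed Cry KO livers. Arntl rose by 3.47 and 3.34 in the wild types, with 0.05 and 0.35 in the knockouts, while Pck1 lies below 0 in all 4 groups.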

How the data were processed

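RNA was measured by mRNA sequencing of liver in 96 libraries, 8 of which make up the comparison. The authors deposited raw read counts per gene; the submitters' processing notes name STAR 2.4.0i and the build mm10, with the counter, annotation and strand setting not given in the sources used here. Of 55421 gene identifiers 55154 matched GENCODE M21; the other 267 held 0.0449% of counts. Total counts were 7455460 to 28656176 in the 8 libraries and 1478963 to 35568856 in all 96.

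Genes were kept by filterByExpr (at least 10 counts, 15 in total) and tested with edgeR 4.0.16 (TMM scaling, quasi-likelihood test, Benjamini-Hochberg adjustment, threshold 0.05) with the replicate series as blocks; the SE is the log2 fold change divided by the square root of F. CPM values are TMM-normalised over all 96 libraries. The fits were checked on simulated data. Apart from the changes put in, the simulated counts had no difference between series and no library that stood apart. That check therefore cannot show how the calls depend on single series or libraries. Alternatives were other size factors, other filters, DESeq2 1.42.0, limma-voom (limma 3.58.1), no block, leaving out each series and the fit of 24 libraries. Leaving out the 2 libraries over 2000 CPM of Saa1, alone, with line means in place of the block, or from the fit of 24 libraries, was added after seeing the data, as were all alternatives of the ad libitum step.

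The members, the 34 gene lists (24 pathways, 10 cell types) and the tests were chosen with earlier results of these data known. Named genes are the 15 highest and 15 lowest called log2 fold changes with a mean of at least 5 CPM and 1 direction in all 4 series, up to 6 per direction from the differences, and list members; some list members are not reported here. Promoter sequences are from RefSeq, GRCm38.p6.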

Additional observations from a re-analysis of the deposited data

Results flagged for a closer look

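In 18 of 230 groups of 4 night-fed wild type libraries (115 genes at 2 times), 1 library stood far from the other 3; chance gives about 1 in 20 groups. Cry WT replicate 6 at ZT12 was the high one in 7 genes: Saa1 (21050 CPM), Igfbp1 (298.5), Map1lc3b (197.1), Il1rn (108.4), Ighg2c (68.71), S100a8 (38.45) and Ngp (17.79), and the low one in Hdc (20.26). This was 1 of the 2 libraries rich in Saa1. At ZT16 the same series had the highest Ighg2c, at 4.543 CPM. The other library rich in Saa1, Bmal1 WT replicate 2 at ZT12, had the lowest Ulk1, at 89.47 CPM. At ZT16 Bmal1 WT replicate 2 was the lowest in Hsph1 (115.1 CPM) and Cyp7a1 (295.7) and the highest in Chac1 (2.067) and Ngp (0.04593). Cry WT replicate 9 was the highest at ZT12 in Lpin1 (1775 CPM) and Hyou1 (213.2), and at ZT16 in Baat (319.7) and Per1 (59.39).

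The step from ZT12 to ZT16 differed between knockout and wild type by edgeR's test of the difference itself in 10 cases, as log2 values of knockout minus wild type. For Arntl it was -3.42 (adjusted p = 0.00173) in Bmal1 KO and -3.12 (adjusted p = 0.0038) in Cry KO. Slc30a10 gave -2.43 (adjusted p = 0.00333) and -2.17 (adjusted p = 0.00638), and Dbp 3.20 (adjusted p = 0.00389) and 3.04 (adjusted p = 0.0038). In Bmal1 KO alone Celsr1 gave -2.28 (adjusted p = 0.0322), Chka -2.14 (adjusted p = 0.0448), Trim12a 8.81 (adjusted p = 0.0322) and Moxd1 14.35 (adjusted p = 0.0106). The Trim12a and Moxd1 values rest on libraries at or near 0 counts, so that their size depends on the prior count and is no bound.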

How the results depend on the processing

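The 1188 genes called at meal onset (605 higher, 583 lower) became 2130 (1044, 1086) with no filter on low counts and 1941 (977, 964) with DESeq2. They became 2614 (1317, 1297) in the fit of 24 libraries and 123 (76, 47) without the 2 libraries rich in Saa1. The cause was not tested. Leaving out 1 series gave 137 to 982 calls, 83 to 446 higher and 45 to 536 lower: 147 without Bmal1 WT replicate 2, 137 without Bmal1 WT replicate 4 and 676 without Cry WT replicate 6. The share of calls that were higher was 50.9% in the main analysis, 67.2% without Bmal1 WT replicate 4 and 61.8% without the 2 libraries. Ighg2c reversed to 1.62 on the log2 scale without the 2 libraries and without the replicate block.

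The feeding difference, with 0 calls, gave 124 with no filter, 12 with DESeq2, 1 with limma-voom and 0 to 2 leaving out 1 series (2 without Bmal1 WT AL replicate 8 and 2 without Cry WT RF replicate 9). The ad libitum step, with 1257 calls, gave 364 to 1465 leaving out 1 series (364 without Bmal1 WT AL replicate 1, 470 without Cry WT AL replicate 2 and 669 without Cry WT AL replicate 4). The Bmal1 KO difference gave 634 with no filter, 117 with DESeq2, 13 with limma-voom, 2 without the 2 libraries and 3 to 147 leaving out 1 series, the highest without Bmal1 KO replicate 2. The Cry KO difference gave 374 with no filter, 79 with DESeq2, 1 without the 2 libraries and 0 to 7 leaving out 1 series. The line difference gave 56 with no filter and 13 with DESeq2. It was not run without the 2 libraries, since the series block then leaves no residual degrees of freedom. With no filter, 31952 genes were tested in place of 16012 in the steps of the day.

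Among the steps of the day, DESeq2 gave 485 from ZT0 to ZT4, 1121 from ZT16 to ZT20 and 322 from ZT20 to ZT0. With no filter ZT20 to ZT0 gave 134. Without the 2 libraries ZT8 to ZT12 gave 598, ZT12 to ZT16 1316 and ZT20 to ZT0 131. Leaving out 1 series gave, from ZT0 on, 8 to 144, 173 to 482, 341 to 655, 1276 to 2183, 79 to 201 and 17 to 141. In each of these fits ZT12 to ZT16 held the most calls.

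The labels do not say what a replicate number stands for. Deviations of the series correlated between the 2 times at 0.224 (Bmal1 WT replicate 2), 0.259 (Bmal1 WT replicate 4), 0.202 (Cry WT replicate 6) and 0.0757 (Cry WT replicate 9), so the pairing is not established. With no replicate block 1365 genes were called (746 higher, 619 lower), and 1030 of the 1188 were among them in the same direction.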
